A study of Mus musculus with 2 samples.

Results

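The interferon regulatory factor (IRF) genes Irf1, Irf2, Irf3, Irf4, Irf5, Irf7, Irf8 and Irf9 were compared between GFP-positive and GFP-negative CD4+ T cells of the mouse, sorted by a reporter of Foxp3, the lineage factor of regulatory T cells. Every probe set of the deposited table that the platform annotation pairs with exactly 1 of these 8 symbols was taken, which gave 14 of 45101 probe sets and 8 of 18193 genes. The first array held CD4+ T cells that carried the reporter, green fluorescent protein (GFP), labelled CD4+GFP+FoxP3+, and the second held CD4+ T cells without it, labelled CD4+GFPnegFoxP3neg. Both came from DEREG mice, a transgenic strain in which the Foxp3 promoter drives GFP fused to a diphtheria toxin receptor, so GFP marks cells that use this promoter and the comparison cells carry the transgene too. Negative selection for CD4+ T cells came before the sort, whose stated purity was above 99%. There was 1 Affymetrix Mouse Genome 430 array per group and no replicate, so no test was possible and every difference is between these 2 arrays. The organ, the age, sex and number of the mice, and whether animals were pooled or treated, are not stated in the labels used.

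IRFs are transcription factors that bind repeats of the letters GAAA in DNA through a tryptophan-rich domain at the start of the protein. IRF3 and IRF7 are switched on by phosphorylation after sensing of foreign nucleic acids and start interferon genes, IRF9 binds DNA within the complex that type I interferon activates, and IRF1 and IRF2 act against each other on many of the same sites, IRF1 mostly as an activator and IRF2 mostly as a repressor. IRF4 and IRF8 are close relatives of lymphoid and myeloid cells that bind weakly alone and pair with partners such as BATF and JUN proteins or PU.1. In mouse regulatory T cells IRF4 is known for its part in effector differentiation and in the control of type 2 helper responses.

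The promoters of the 3 IRF genes with the largest differences between the arrays, Irf4, Irf2 and Irf7, are shown because messenger RNA signals are the readout and these windows hold or lack the family's own binding letters. Each runs from 250 bases before to 50 bases after the transcript start, 5′ to 3′, from RefSeq on GRCm38.p6, with motif matches in capitals.
Irf4, chr13:30748983-30749282, plus strand: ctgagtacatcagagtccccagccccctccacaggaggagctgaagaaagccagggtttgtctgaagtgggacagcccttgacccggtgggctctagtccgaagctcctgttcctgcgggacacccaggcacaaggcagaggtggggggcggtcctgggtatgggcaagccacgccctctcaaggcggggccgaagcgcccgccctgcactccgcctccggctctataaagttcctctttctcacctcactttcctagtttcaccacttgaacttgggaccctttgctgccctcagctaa
Irf2, chr8:46739495-46739794, plus strand: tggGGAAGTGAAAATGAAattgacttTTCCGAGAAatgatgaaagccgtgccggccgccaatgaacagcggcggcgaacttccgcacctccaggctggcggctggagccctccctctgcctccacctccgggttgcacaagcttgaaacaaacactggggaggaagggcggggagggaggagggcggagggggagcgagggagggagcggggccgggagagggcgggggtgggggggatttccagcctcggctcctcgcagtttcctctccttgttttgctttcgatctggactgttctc
Irf7, chr7:141266375-141266674, minus strand: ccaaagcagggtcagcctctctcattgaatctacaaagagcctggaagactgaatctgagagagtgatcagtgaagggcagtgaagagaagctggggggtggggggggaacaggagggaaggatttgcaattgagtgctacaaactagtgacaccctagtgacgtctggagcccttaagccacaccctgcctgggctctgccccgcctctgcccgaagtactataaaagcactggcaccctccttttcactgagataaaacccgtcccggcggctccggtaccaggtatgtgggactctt
Capitals mark any match, on either strand, to the interferon-stimulated response element (core letters GAAANNGAA), the gamma-activated site bound by STAT proteins (TTCNNNGAA), the ETS-IRF composite element (core letters GGAANNGAA), the AP-1 site (TGANTCA) or a kappaB site (core letters GGGANTTTC).

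Of these 3 windows, that of Irf2 alone held a match. Its match to the interferon-stimulated response element, GAAAATGAA, spans bases -241 to -233, counted with the first transcribed base as 0. The ETS-IRF composite match GGAAGTGAA, from -247 to -239, overlaps it, and a gamma-activated site match, TTCCGAGAA, follows from -224 to -216. All 8 genes had an entry in the promoter table, with 11 windows because Irf1, Irf8 and Irf9 have 2 starts each. The response element was in 1 of the 11 IRF windows, against 8.55% of 32817 mouse promoter windows, and the composite element in 1 of 11, against 8.25%. The gamma-activated site was in 3 of 11, against 8.29%. Besides Irf2 these were Irf1, with TTCCCCGAA from -90 to -82, and Irf8, with TTCTCGGAA from -171 to -163 and TTCAGAGAA from -153 to -145. The AP-1 letters and the kappaB letters searched were in 0 of 11 windows, against 7.81% and 1.11%. Only 1 form of the kappaB site was searched, so kappaB sites spelled otherwise are neither marked nor counted. These matches describe letters and say nothing of binding in the sorted cells.

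**Figure D1:**
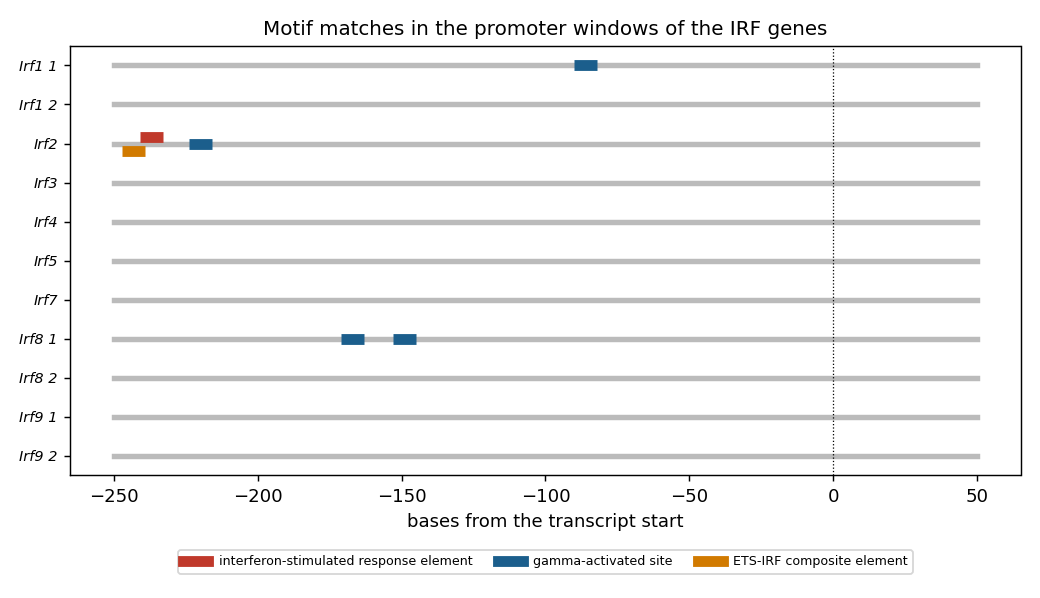
Positions of motif matches in the 11 promoter windows of the 8 IRF genes; the horizontal axis is the distance in bases from the transcript start, each grey line is 1 window (numbered where a gene has 2), and coloured blocks are matches. The Irf2 window holds 3 kinds of match, Irf1 and Irf8 hold gamma-activated sites in 1 of their windows each, and the other windows hold none of the 5 motifs searched.

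The labels were checked against marker genes. Foxp3, whose promoter drives the GFP, had a signal of 504.4 in GFP-positive cells against 173.2 in GFP-negative cells, which is 2.91-fold higher. The signal of the library labelled FoxP3neg was thus above the floor of 62.3 described below. All 5 regulatory T cell markers listed (Foxp3, Il2ra, Ctla4, Tnfrsf18 and Ikzf2) were higher in GFP-positive cells, with a median log2 difference of 0.98. All 6 measured CD4 T cell markers were well above the signal floor on both arrays, at 256.5 to 4618.9 in GFP-positive and 415.1 to 4676.8 in GFP-negative cells. The floor of 62.3 is the level under which 90% of signals of genes restricted to other tissues lay. It was exceeded by 41.8% of probe sets in GFP-positive cells against 39.0% in GFP-negative cells. Probe sets of these tissue-restricted genes had a median signal of 12.8 in GFP-positive cells against 8.3 in GFP-negative cells. Both arrays were given the same floor, and how this affects genes above it on 1 array alone was not tested. The 3′ to 5′ signal ratio of a gene grows as RNA is broken down or copied in part. For Actb it was 5.30 in GFP-positive cells against 3.57 in GFP-negative cells. For Gapdh it was 9.27 in GFP-positive cells against 6.24 in GFP-negative cells. The part of RNA quality in the differences below was not tested.

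Among the IRF genes, Irf4 and Irf2 had higher signals and Irf7 a lower signal in GFP-positive cells, while Irf1, Irf3, Irf8 and Irf9 differed by less than 1.2-fold and Irf5 was under the floor on both arrays. None of the 7 genes with a signal over the floor was given a 2-fold difference by its brightest probe set, which stands for the gene here. For Irf2 the value is a lower bound, so its difference can exceed 2-fold. Of all 10328 genes above the floor, 3.48% reached 2-fold, counted in the same way. At 1.5-fold, 2 IRF genes were higher and 1 was lower in GFP-positive cells, against 8.92% and 7.81% of all genes. Each difference is the log2 signal of GFP-positive cells less that of GFP-negative cells, with signals under the floor raised to it. The median over the 7 IRF genes was 0.18, and that over all genes -0.01. In a sorted population, fewer cells that express a gene and less RNA per cell cannot be told apart.

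**Figure D2:**
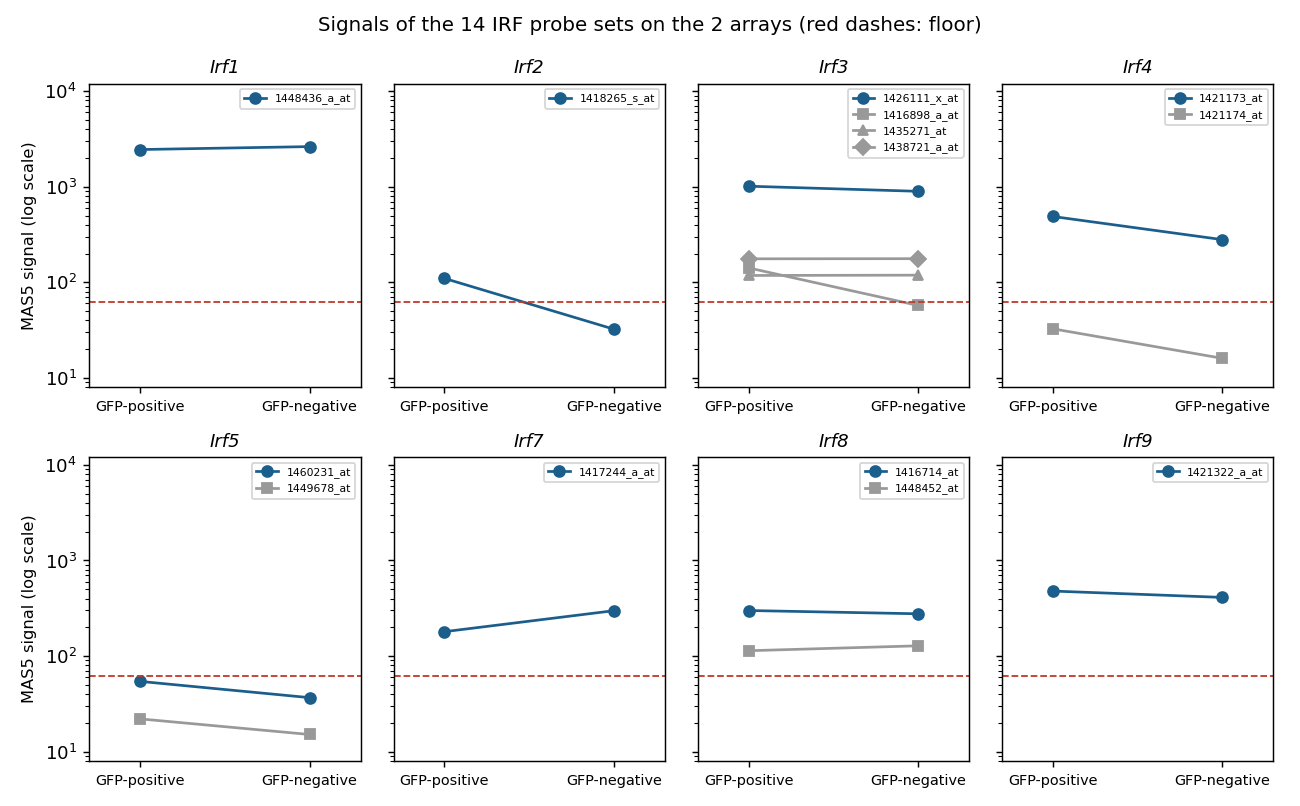
MAS5 signal (log axis) of each of the 14 IRF probe sets on the GFP-positive and the GFP-negative array, 1 panel per gene; blue is the brightest probe set of a gene, grey its other probe sets, and red dashes mark the floor of 62.3. The lines of Irf4 and Irf2 slope down towards GFP-negative cells, that of Irf7 slopes up, and both Irf5 probe sets lie under the floor.

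Irf4 encodes the factor that T cells induce in step with the strength of antigen receptor signals. Its probe set 1421173_at had a signal of 488.5 in GFP-positive cells against 279.5 in GFP-negative cells, which is 1.75-fold or 0.81 log2 higher. Both signals were clear of the floor, and 3.92% of all genes were at least as far in this direction. As a measure of scatter within these arrays, probe sets of the same gene with a mean signal between 249.0 and 498.1 had log2 differences that varied with an SD of 0.38, from 1732 probe sets of 1444 genes; it holds no variation between animals, sorts or arrays. The second probe set, 1421174_at, gave 32.6 in GFP-positive cells against 16 in GFP-negative cells, both under the floor, and so adds no measured difference. The Irf4 evidence is therefore that of 1 probe set.

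Irf2 encodes a factor that competes with IRF1 for interferon response elements. Its probe set, 1418265_s_at, had a signal of 109.9 in GFP-positive cells against 32.3 in GFP-negative cells. Only the GFP-positive signal was above the floor. Against this floor, common to both arrays, the gene was at least 1.77-fold higher, and 3.69% of all genes reached that value. The suffix _s_at marks probes that can match transcripts of more than 1 gene. With the floor doubled, both Irf2 signals lay below it and no difference could be given.

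Irf3 encodes a factor that most cells make without stimulation and hold in the cytoplasm until it is phosphorylated. Its 4 probe sets did not give a common answer. The brightest, 1426111_x_at, had signals of 1013.4 in GFP-positive cells against 895.8 in GFP-negative cells, or 0.18 log2 higher, but its suffix marks probes that resemble other sequences. The probe sets 1438721_a_at, with 176.1 in GFP-positive cells against 176.7 in GFP-negative cells, and 1435271_at, with 117.9 in GFP-positive cells against 118.8 in GFP-negative cells, were level to within 0.02 log2. The fourth, 1416898_a_at, had 141.5 in GFP-positive cells against 57.2 in GFP-negative cells, at least 2.27-fold higher. It was the only 1 of the 11 IRF probe sets above the floor that passed 2-fold, and of all 17460 probe sets above the floor 2.09% were at least 2-fold higher and 1.74% at least 2-fold lower. The suffix _a_at marks probes shared by several transcripts of a gene, and the table gives no transcript to which the disagreement could be assigned.

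Irf7 encodes the factor that amplifies interferon production, and it is itself an interferon-induced gene. Its probe set, 1417244_a_at, had a signal of 179.9 in GFP-positive cells against 298.4 in GFP-negative cells, which is 1.66-fold lower in GFP-positive cells or a log2 difference of -0.73. Of all genes, 4.39% were at least as far in this direction. Probe sets of the same gene with a mean signal between 124.5 and 249.0 varied with an SD of 0.44 log2. Irf9, the DNA-binding subunit of the complex that type I interferon activates, went slightly the other way. Its probe set 1421322_a_at had 478.8 in GFP-positive cells against 410.9 in GFP-negative cells, or 0.22 log2.

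Irf1 encodes an activator that interferon-gamma induces. Its probe set, 1448436_a_at, had signals of 2451.2 in GFP-positive cells against 2631.7 in GFP-negative cells. The log2 difference of -0.10 was smaller than the SD of 0.31 among probe sets of the same gene with a mean signal over 498.1. Of all genes, 39.5% were at least this far lower.

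Irf8 and Irf5 are best known from B cells, macrophages and dendritic cells. The Irf8 probe set 1416714_at had 299.6 in GFP-positive cells against 276.9 in GFP-negative cells, or 0.11 log2, and 1448452_at had 113.7 in GFP-positive cells against 128.0 in GFP-negative cells, or -0.17 log2. The probe sets of Irf8 thus went opposite ways by amounts below the scatter within genes. For Irf5, 1460231_at had 54.3 in GFP-positive cells against 36.7 in GFP-negative cells, and 1449678_at had 22 in GFP-positive cells against 15.1 in GFP-negative cells. All 4 Irf5 signals were below the floor, so no difference is given.

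Markers of the cell types in which Irf5, Irf7 and Irf8 are abundant were mostly below the floor. Of 11 B cell markers measured, 4 were above the floor on each array, with summed signals of 2644.0 in GFP-positive cells against 5112.7 in GFP-negative cells. Most of that sum was Ighm, at 1880.7 in GFP-positive cells against 4139.0 in GFP-negative cells, while Ms4a1, Cd79a, Pax5, Blk and Ebf1 were below the floor on both. Of those above it, 3 were lower and 1 was higher: Cd79b, a chain of the B cell receptor complex, was 3.13-fold higher, at 221.9 in GFP-positive cells against 70.8 in GFP-negative cells. Of 9 dendritic cell markers, 1 was above the floor, Bst2, which is also interferon-inducible. Their summed signals were 334.2 in GFP-positive cells against 406.3 in GFP-negative cells, and Itgax, Flt3 and Siglech were below the floor on both. Of 9 monocyte and macrophage markers, 4 were above the floor in GFP-positive cells against 3 in GFP-negative cells, with summed signals of 425.9 in GFP-positive cells against 553.3 in GFP-negative cells, and Cd14, Lyz2 and Cd68 were below the floor on both. Of the 5 above it on either array, 3 (Csf1r, Adgre1 and Itgam) were higher and 2 (Fcgr3 and Mpeg1) lower, with a median of 0.06. The sums were lower in GFP-positive cells for these 3 lists, but also for CD4 T cell markers, at 11693.4 in GFP-positive cells against 12947.5 in GFP-negative cells, and for CD8 T and NK cell markers, at 362.5 in GFP-positive cells against 568.4 in GFP-negative cells. Signals below the floor are part of the sums, among them those of 8 of the 9 dendritic cell markers, so a lower sum is not always a measured difference. The part of other cell types in the Irf7 difference was not tested.

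**Figure D3:**
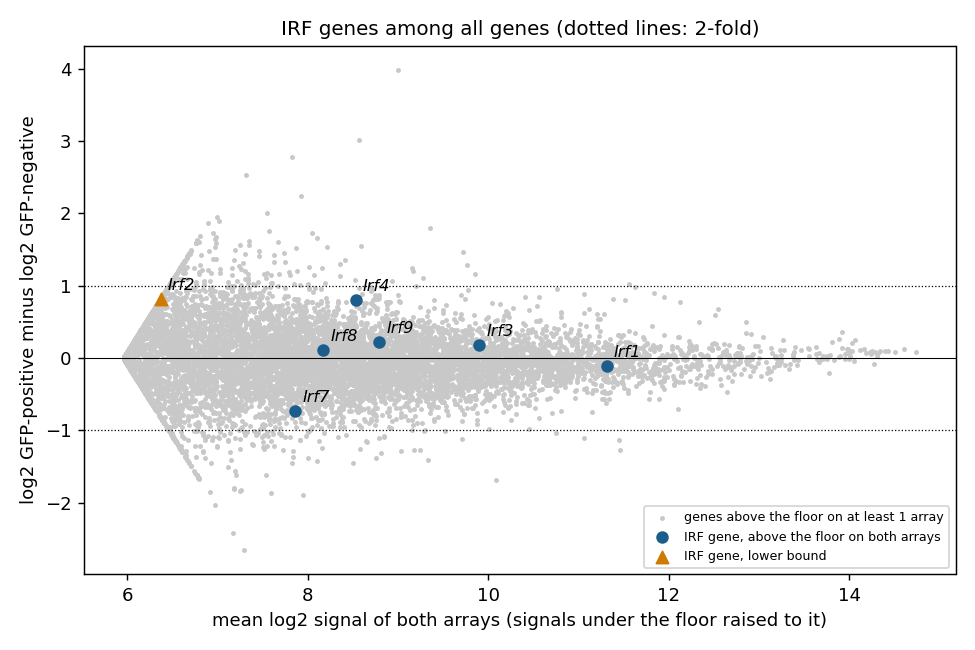
Log2 difference, GFP-positive minus GFP-negative, against the mean log2 signal of both arrays for the 10328 genes that exceeded the floor on either array (grey), with the 7 IRF genes above it in colour; the triangle is a lower bound. Irf4 at 0.81 and Irf7 at -0.73 lie near the edge of the cloud and inside the 2-fold lines. The triangle of Irf2 is drawn there too, at 0.82, but its difference can exceed 2-fold. The other IRF genes lie within the cloud.

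Proteins that work with IRFs on DNA went both ways. Of 23 measured partners and cofactors, 20 were above the floor, 7 higher and 13 lower in GFP-positive cells, with a median of -0.10. Across all genes 48.8% were higher and 51.2% lower. Swap70, a member of the same family as the IRF4-binding protein Def6, was 2.10-fold higher, at 707.9 in GFP-positive cells against 336.5 in GFP-negative cells, and its further probe set was higher too, at 281.2 in GFP-positive cells against 161.2 in GFP-negative cells. It was the only one past 2-fold higher, against 1.75% of all genes, and 0 were 2-fold lower, against 1.72%. The count higher became 0 with probe sets averaged, and the count lower became 1 with median centring. Without a floor, 2 were higher and 2 lower. Def6 itself had 1360.0 in GFP-positive cells against 1219.0 in GFP-negative cells and was named after its values were seen.

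Transcription factors on the list of partners went both ways too. More of those given here were lower than higher in GFP-positive cells, where 51.2% of all genes were lower. Batf had 631.3 in GFP-positive cells against 851.3 in GFP-negative cells (-0.43 log2). Jun had 142.1 in GFP-positive cells against 133.6 in GFP-negative cells (0.09). Junb had 266.3 in GFP-positive cells against 274.1 in GFP-negative cells (-0.04), and Jund had 1648.8 in GFP-positive cells against 2018.1 in GFP-negative cells (-0.29). Nfatc1, a calcium-dependent factor downstream of the antigen receptor, had 445.2 in GFP-positive cells against 888.9 in GFP-negative cells (-0.998), and its 4 further probe sets were lower as well. Nfatc2 had 555.2 in GFP-positive cells against 820.5 in GFP-negative cells, and a further probe set, at the edge of the floor, 63.7 in GFP-positive cells against 41.7 in GFP-negative cells. Ikzf3, a zinc finger factor of lymphocytes, had 659.6 in GFP-positive cells against 517.9 in GFP-negative cells (0.35). Ikzf1 had 2317.0 in GFP-positive cells against 2842.8 in GFP-negative cells (-0.30). Stat3 had 468.3 in GFP-positive cells against 567.1 in GFP-negative cells (-0.28). Bcl6, a transcriptional repressor that drives follicular helper T cell differentiation, had 203.3 in GFP-positive cells against 396.5 in GFP-negative cells (-0.96). The further Bcl6 probe set was under the floor on both arrays. Spi1, which encodes PU.1, and Spib, the usual IRF partners in B and myeloid cells, had at most 65.4 on either array. Of these, Batf, Jun, Junb, Jund, Ikzf3, Ikzf1, Stat3, Spi1 and Spib were named after their values were seen.

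The IRF2-binding corepressors were also not of 1 direction. Irf2bp2 had 246.3 in GFP-positive cells against 342.0 in GFP-negative cells (-0.47), and Irf2bp1 had 99.0 in GFP-positive cells against 86.7 in GFP-negative cells (0.19). Irf2bpl was at least 1.48-fold higher, with 91.9 in GFP-positive cells against 50.8 in GFP-negative cells. All 3 were named after their values were seen.

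Genes that lead to IRF activation differed mostly by small amounts. Of 15 measured sensors, adaptors and kinases, 11 were above the floor, 3 higher and 8 lower in GFP-positive cells, with a median of -0.17, and 1 passed 2-fold, against 3.48% of all genes. With probe sets averaged, 0 passed it, and without a floor 3 were at least 2-fold higher and 3 at least 2-fold lower. Cgas, the cytosolic DNA sensor, was 2.03-fold higher by its brighter probe set, at 328.9 in GFP-positive cells against 162.1 in GFP-negative cells, but the other probe set had 106.4 in GFP-positive cells against 115.1 in GFP-negative cells. The RNA sensor gene Ifih1 was 1.504-fold lower, at 493.6 in GFP-positive cells against 742.3 in GFP-negative cells, and Myd88, the adaptor of most Toll-like receptors, 1.46-fold lower, at 544.7 in GFP-positive cells against 795.2 in GFP-negative cells. Irak1, a kinase next to it, was 1.56-fold lower by its brightest probe set, with 3 others between -0.20 and 0.08 log2. Tbk1, a kinase that phosphorylates IRF3 and IRF7, had 1118.6 in GFP-positive cells against 1140.5 in GFP-negative cells, and the adaptor gene Sting1 had 2523.6 in GFP-positive cells against 2531.0 in GFP-negative cells. Tbk1 and Sting1 were named after their values were seen. The Toll-like receptor genes Tlr3, Tlr4 and Tlr7 were below the floor on both arrays, while Tlr9 was above it in GFP-positive cells alone, at 80.6 in GFP-positive cells against 8.2 in GFP-negative cells, or at least 1.29-fold higher.

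Interferon receptor and JAK-STAT genes were level except for a few. Of 11 measured, all above the floor, 3 were higher and 8 lower in GFP-positive cells, with a median of -0.05. Past 2-fold were 0, against 3.48% of all genes, of which 48.8% were higher and 51.2% lower. Ifngr1, the ligand-binding chain of the interferon-gamma receptor, had 345.4 in GFP-positive cells against 677.5 in GFP-negative cells, 1.96-fold lower. Its partner chain Ifngr2, named after its values were seen, had 392.9 in GFP-positive cells against 376.6 in GFP-negative cells. Usp18, an interferon-induced brake on the type I receptor, was 1.58-fold lower, at 113.8 in GFP-positive cells against 180.1 in GFP-negative cells. Tyk2, a kinase of that receptor, was 1.31-fold higher, at 511.9 in GFP-positive cells against 391.5 in GFP-negative cells, and the feedback inhibitor gene Socs3 was 1.29-fold lower, at 604.8 in GFP-positive cells against 778.5 in GFP-negative cells.

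Of the interferon genes themselves, Ifng was 2.11-fold lower in GFP-positive cells, at 315.9 in GFP-positive cells against 667.3 in GFP-negative cells. Of 5 markers of CD8 T and NK cells, which are also known to make it, 3 were above the floor. Eomes, a factor of these cells, was 3.58-fold lower, at 80.4 in GFP-positive cells against 288.1 in GFP-negative cells, and Cd8b1 was lower and Klrd1 higher, while Cd8a and Ncr1 were below the floor. Their part in the Ifng difference was not tested. Ifnb1 was just above the floor in GFP-positive cells alone (79.4 in GFP-positive cells against 53.9 in GFP-negative cells). The signals of Ifna1, Ifna2 and Ifna4 were below the floor on both arrays and those of Ifna5, at 62.5 in GFP-positive cells against 65.8 in GFP-negative cells, at its edge.

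Genes linked to IRF4 in effector regulatory T cells had the highest median of the 7 lists, at 0.19 over 10 of 11 measured genes, with 6 higher and 4 lower in GFP-positive cells. Of these, 2 were at least 2-fold higher, against 1.75% of all genes. This count of 2 became 1 with the floor doubled and with suffix-free probe sets, and 3 without a floor and with cyclic loess normalization. Several genes of the list are regulatory T cell signature genes, so the list is not independent of the sort. Ccr6, a homing receptor, was 2.47-fold higher, at 516.4 in GFP-positive cells against 209.0 in GFP-negative cells, and Il10, an anti-inflammatory cytokine gene, 2.06-fold higher, at 231.8 in GFP-positive cells against 112.3 in GFP-negative cells. Itgae, the integrin chain that binds E-cadherin, was 1.92-fold higher by 1 probe set and 1.70-fold by the other. Fgl2, a secreted suppressor molecule, was 1.82-fold higher by 1 probe set, at 142.7 in GFP-positive cells against 78.4 in GFP-negative cells. The other Fgl2 probe set was under the floor on both arrays, at 47.9 in GFP-positive cells against 53.7 in GFP-negative cells. Prdm1, which encodes Blimp-1 and is an IRF4 target in mouse effector regulatory T cells, had 209.7 in GFP-positive cells against 247.5 in GFP-negative cells (-0.24), and Icos, another, had 8315.1 in GFP-positive cells against 6565.6 in GFP-negative cells (0.34). Prdm1 and Icos were named after their values were seen.

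Genes of antigen presentation on MHC class I and guanylate-binding proteins, which IRF1 is known to activate, mostly differed by small amounts. Of 16 measured, 15 were above the floor, 4 higher and 11 lower in GFP-positive cells, with a median of -0.11. Past 2-fold were 0, against 3.48% of all genes, of which 51.2% were lower. With probe sets averaged, 1 was at least 2-fold higher, and without a floor 1 was at least 2-fold lower. Gbp3 was 1.73-fold higher, at 308.9 in GFP-positive cells against 179.0 in GFP-negative cells. The peptide transporter gene Tap1 was 1.42-fold lower, at 1177.7 in GFP-positive cells against 1675.4 in GFP-negative cells, and Casp1 and Tapbp were 1.20-fold lower each. The further Tap1 probe sets were under the floor on both arrays. A dimmer Tapbp probe set was above the floor in GFP-positive cells alone, at 97.4 in GFP-positive cells against 9.0 in GFP-negative cells.

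Type I interferon-stimulated genes had a median of -0.24, which became -0.067 with the floor doubled and -0.35 with further probe sets averaged in. Of 20 measured, 17 were above the floor, 6 higher and 11 lower in GFP-positive cells, against 48.8% and 51.2% of all genes. Oasl2, of the oligoadenylate synthetase family, was at least 2.09-fold lower, at 42.8 in GFP-positive cells against 130.4 in GFP-negative cells, and was the only one past 2-fold lower, against 1.72% of all genes. This count of 1 became 0 with the floor doubled and with suffix-free probe sets, and 2 with probe sets averaged. Ifit3 was 1.81-fold lower, at 204.9 in GFP-positive cells against 370.9 in GFP-negative cells, and the antiviral enzyme gene Rsad2 1.54-fold lower, at 120.7 in GFP-positive cells against 185.3 in GFP-negative cells. The further Rsad2 probe sets were under the floor on both arrays. Ifit1, of the same family as Ifit3, was instead 1.55-fold higher, at 189.0 in GFP-positive cells against 121.6 in GFP-negative cells.

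**Figure D4:**
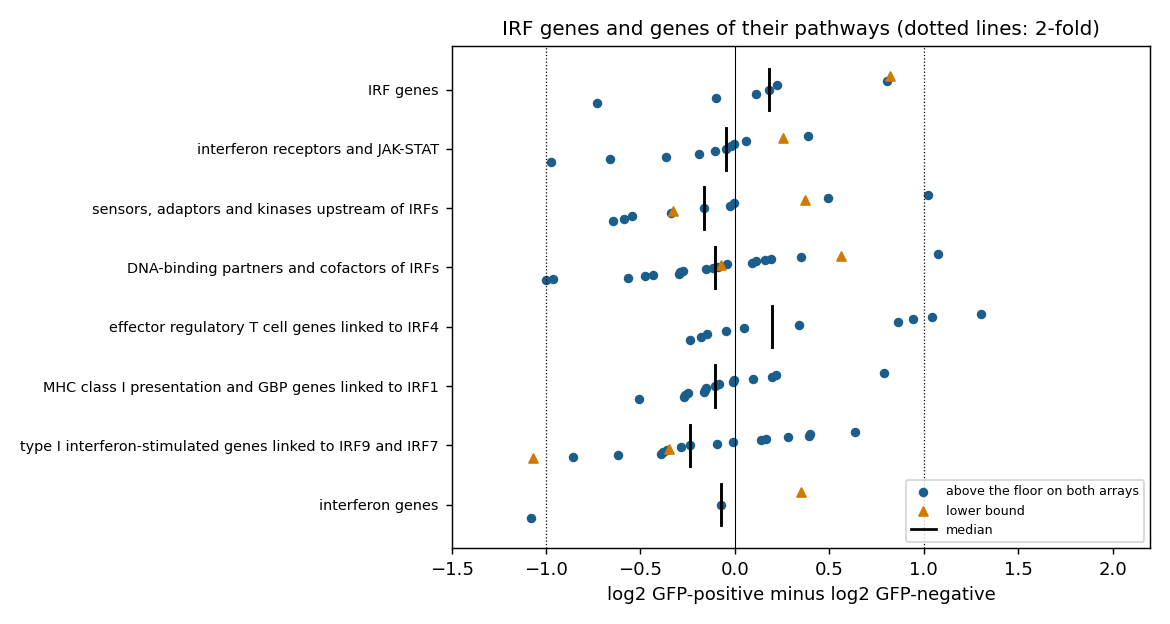
Log2 differences, GFP-positive minus GFP-negative, of the 7 IRF genes above the floor and of the members of 7 gene lists around them; each point is a gene, triangles are lower bounds, black bars are medians and dotted lines mark 2-fold. The medians of the lists run from -0.24 for type I interferon-stimulated genes to 0.19 for effector regulatory T cell genes, and most points lie inside the 2-fold lines.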

How the data were processed

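The deposited values are linear intensities, 1 for each probe set on each array, for which the submitters' processing notes name MAS5. A version and detection calls are not stated there. The 2% trimmed mean was 150.0 on both arrays, so they had been scaled to each other, and no further scaling was applied. Arrays were grouped by their titles. The platform annotation paired 34958 of 45101 probe sets with 1 symbol, 932 with several and 9211 with none; only the first, without the 64 control probe sets, were used. The assembly table matched 34754 of them by gene identifier and changed 0 symbols.

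For each gene, the probe set of highest mean log2 signal was used, and all IRF probe sets are also given. The floor was the 90th percentile of signals of 129 probe sets of 72 tissue-restricted genes, of 81 listed. By their brightest probe set, 14 of these 72 passed it. A signal under the floor was raised to it, so the fold of a gene above the floor on 1 array is a lower bound. Without replicates no test, p-value or standard error is given, and the number of arrays limits the precision. The steps were tested on simulated data. Alternatives were floors, normalizations, probe set choices and a 1.5-fold threshold.

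The IRF genes, 7 gene lists and 6 marker lists were chosen with earlier results of these data known. All IRF genes, Foxp3 and up to 4 genes per list with the largest absolute difference were named, and others are said to be named after their values were seen, apart from markers and genes given only as below the floor. Python 3.11.15 with pandas 2.3.3 and statsmodels 0.14.6 was used.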

Additional observations from a re-analysis of the deposited data

How the results depend on the processing

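Of the 9 alternatives, the 1.5-fold threshold changed counts only. Under the others, 2 of 51 IRF gene values moved by more than 0.40 log2, the SD among probe sets of a gene. Genes that lost their value under a setting, such as Irf2 with the floor doubled, are not among the 51. Without a floor Irf2 became 1.77 and Irf5, under the floor otherwise, gave 0.57, so the number of IRF genes at least 2-fold higher became 1. Irf4 ranged from 0.80 to 0.92, Irf7 from -0.74 to -0.72, Irf9 from 0.22 to 0.27 and Irf1 from -0.11 to -0.06. Irf3 ranged from -0.01 to 0.37 and Irf8 from -0.03 to 0.15, so neither had a settled sign. Irf1, Irf2, Irf7 and Irf9 gave no value from probe sets without a suffix. At 1.5-fold, 2 IRF genes were higher and 1 lower in GFP-positive cells. Among all genes, the counts at least 2-fold higher and lower, 181 and 178, became 56 and 68 with the floor doubled, 3305 and 2420 without it, and 921 and 807 at 1.5-fold. Of 56 IRF probe set values 5 moved, and the lower bound of Irf3 probe set 1416898_a_at became 0.18 with the floor doubled.

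With the floor doubled, the median of the interferon-stimulated list was -0.067 and that of the interferon genes, with 1 gene left, -1.08. Without a floor, the medians were -0.34 for sensors, adaptors and kinases, 0.34 for effector regulatory T cell genes and 0.24 for interferon genes. With probe sets averaged, they were 0.0025 for partners and cofactors and -0.35 for interferon-stimulated genes. With suffix-free probe sets alone, they were -0.36 for interferon-stimulated genes and -0.36 for interferon genes. Without _s_at and _x_at probe sets, chosen after seeing the data, they were -0.33 for sensors, adaptors and kinases and -0.36 for interferon genes. The other 45 list medians moved less than their scatter. Counts of list genes past 2-fold moved by over 1.5 times, or to or from 0, in 9 of 98 cases with a floor and 8 of 14 without. The causes were not tested beyond the genes each setting drops or adds. No paired analysis was possible because each group has 1 array.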
